A study of Mus musculus with 4 samples.

Results

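The myofibroblast-type fibroblasts of LATS1/2-KO mammary glands were chosen by measured transcript counts, without sorting or staining for them. A LATS1/2-KO cell with more than 500 detected genes and under 20% mitochondrial UMIs (unique molecular identifiers, the counted transcripts) was taken as stromal when *Col1a1*, *Col1a2* and *Col3a1* held at least 0.5% of its UMIs, *Epcam* stood under 10 per 10000 UMIs, and *Ptprc* and *Pecam1* were at 0. A stromal cell was a member when its UMIs of *Lrrc15*, *Fap*, *Adam12*, *Cspg4* and *Col12a1* added up to more than those of *Scara5*, *Clec3b*, *Pi16*, *Dpp4* and *Smpd3*, and also to more than those of *Notch3*, *Rgs5*, *Higd1b*, *Gja4* and *Kcnj8*. The rule took 393 of 744 stromal cells, 178 of 258 in LATS1/2-KO replicate 1 and 215 of 486 in replicate 2, out of 9771 kept LATS1/2-KO cells and 18200 kept cells in all 4 libraries. The remaining stromal cells of the same glands were Scara5-side (51 and 208 cells), Notch3-side (7 and 3) or undecided by a tie (22 and 60).

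Live cells of whole mammary glands were profiled by droplet-based single-cell RNA sequencing, with 1 library per mouse and 2 adult nulliparous mice per group. CTL mice carried *Lats1*f/f, *Lats2*f/f and a heterozygous R26-lsl-EYFP reporter and had no Cre. LATS1/2-KO mice carried the same floxed alleles plus *Krt8*-CreERT2, with R26-lsl-EYFP heterozygous in replicate 1 and homozygous in replicate 2. All 4 mice received 2 mg tamoxifen in corn oil intraperitoneally on each of 5 days, and the glands were taken 7 days after the last dose. Because the *Krt8* promoter drives Cre in luminal epithelium, fibroblasts were not the cells targeted for deletion. The CTL libraries held 5291 and 3736 barcodes with 47321220 and 43020190 UMIs, and the LATS1/2-KO libraries held 4937 and 6360 barcodes with 39319356 and 46476923 UMIs. The members of different libraries shared 0 barcodes, and the kept barcodes shared by a pair of libraries numbered 4 to 12.

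Fibroblasts build and turn over the connective tissue around mammary ducts. In wounds and around tumours some of them take on a myofibroblast form, in which actin and myosin fibres pull on the matrix, fibrillar collagen and matricellular glycoproteins are laid down, and *Lrrc15* and *Fap* are commonly used markers. Inflammatory-type fibroblasts instead release cytokines, acute-phase proteins and complement, while pericytes and other perivascular cells wrap small vessels and carry *Notch3* and *Rgs5*.

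The genes of the rule describe the choice and were not tested. *Col12a1*, a collagen on the surface of fibrils, stood at 2022 and 1391 CPM in the members of replicates 1 and 2 (CPM, UMIs of the gene per 1000000 UMIs summed over that cell group and library), against 60.5 and 61.2 in the Scara5-side cells. *Lrrc15*, a transmembrane leucine-rich repeat protein, gave 885 and 734 CPM against 3.56 and 12.7, and *Adam12*, a metalloprotease, 178 and 140.3 against 3.56 and 6.36. Both groups of cells held *Fap*, a serine protease, at nearly one level, with 45.9 and 46.8 CPM in the members and 35.6 and 40.6 in the Scara5-side cells. *Cspg4*, a proteoglycan also found on pericytes, was at 155 and 112 CPM against 0 and 0. The choice therefore rested mainly on *Col12a1* and *Lrrc15*, which gave 2116 and 926 UMIs in the members of replicate 1 and 1844 and 973 in replicate 2, against 48 and 62 UMIs of *Fap*. *Col1a1* stood at 21480 and 21050 CPM in the members and 7446 and 4950 in the Scara5-side cells.

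Markers of other cell types were low in the members. The fibroblast markers *Pdgfra*, *Dcn*, *Lum* and *Pdpn* were all detected, led by *Dcn*. They summed to 3861 and 3664 CPM in the members, below the 15330 and 13660 of the Scara5-side cells. Of 5 perivascular markers the most abundant in the members was *Notch3* at 13.4 and 9.80 CPM, against 502 and 561 in 30 and 52 perivascular cells of the same glands, a gap set by the choice of the cells, which both used *Notch3*. The 6 mural markers outside the rule, led by *Des* at 46.8 and 27.2 CPM, summed to 114.6 and 79.2 CPM in the members and *Pln* was at 0. They summed to 248.9 and 208.4 CPM in the Scara5-side cells and 1785 and 1920 in the perivascular cells. Lymphocyte markers summed to 0 and 3.02 CPM with *Cd3e*, *Cd3d*, *Nkg7* and *Ms4a1* at 0, adipocyte markers to 0.955 and 4.53 with *Plin1* at 0, and red cell markers to 0 and 0.754. Endothelial markers, led by *Flt1*, summed to 28.7 and 21.9 CPM against 3612 and 2621 in endothelial cells of the same libraries. Macrophage markers, led by *Lyz2* at 24.8 and 18.1 CPM, summed to 112.7 and 101.1 CPM, close to the 92.5 and 86.7 of the Scara5-side cells. The 12 epithelial markers, led by *Krt18*, summed to 1578 and 855 CPM in the members and 1284 and 1102 CPM in the Scara5-side cells, against 26000 and 25460 CPM in epithelial cells. Epithelial transcripts thus stood at similar levels in both stromal groups of a mouse. The markers outside the rule set the members apart from epithelial, immune, endothelial and perivascular cells. They include no list for myofibroblasts, so they do not test that part of the label. Of the rule genes *Fap* hardly separates the members from the Scara5-side cells.

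The members held 1046736 and 1325813 UMIs in all and the Scara5-side cells 281235 and 1257331. Median depth was 4978 and 4206 UMIs per member cell and 5420 and 5990 per Scara5-side cell. Mitochondrial UMIs made up a median of 3.46% and 7.46% in the members and 1.97% and 2.46% in the Scara5-side cells. Cells at or over 10% mitochondrial UMIs were 55 of the members of replicate 1 (30.9%) and 92 of those of replicate 2 (42.8%), against 0 and 8 (3.85%) of the Scara5-side cells. The members of both mice therefore carried more mitochondrial RNA, and its part in the gene differences was not tested. With the limit at 10% the within-mouse comparison described next gave 754 genes higher and 742 lower of 6669.

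The share of stromal cells that met the rule was high in both LATS1/2-KO libraries. It was 69.0% (178 of 258; exact Clopper-Pearson 95% interval 63.0 to 74.6) and 44.2% (215 of 486; 39.8 to 48.8) in LATS1/2-KO, and 4.26% (2 of 47; 0.520 to 14.5) and 14.3% (2 of 14; 1.78 to 42.8) in CTL. Both LATS1/2-KO values lay above both CTL values. These and the later intervals over cells cover counting error within a library only, not the spread between mice, so they do not test the groups. Even so, those of replicate 2 of LATS1/2-KO and replicate 2 of CTL overlapped between 39.8 and 42.8%. The difference of the means was 47.3 percentage points. It is given as a description, since the rule was chosen with earlier results of these data known and no exact permutation test of 2 against 2 libraries can give a two-sided p below 0.333. The CTL glands gave 61 stromal cells in all, so their shares are coarse, and the 4 CTL cells that met the rule were too few to compare with the members.

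Within the LATS1/2-KO glands the members differed from the Scara5-side cells of the same mouse in matrix glycoproteins, contractile genes, adhesion receptors and secreted immune proteins. This comparison asks which functions beyond the marker genes set apart the myofibroblast-type fibroblasts from the inflammatory-type fibroblasts beside them. *Tnc* (ENSMUSG00000028364), which encodes tenascin-C, a glycoprotein of wound and tumour matrix, stood at 1645 and 897 CPM in the members and 28.4 and 45.3 in the Scara5-side cells. *Postn* (ENSMUSG00000027750), which encodes periostin, an integrin-binding matrix protein, stood at 9694 and 9923 CPM against 793 and 780.2. *C3* (ENSMUSG00000024164), the central complement protein, ran the other way with 147 and 180.3 CPM in the members and 2286 and 2660 in the Scara5-side cells. For each of these genes the members of both mice lay on one side of the Scara5-side cells of both mice, with no overlap.

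Of 7195 genes tested with edgeR's quasi-likelihood test (mouse as block, Benjamini-Hochberg adjustment, threshold 0.05), 620 were higher in the members (8.62%) and 569 lower (7.91%). The direction was the same in both mice for 1174 of these 1189 genes, and the median log2 fold change of all genes tested was -0.01. The log2 fold changes were 4.72 ± 0.48 for *Tnc* (SE, n = 2 mice, adjusted p = 1.24e-20), 3.57 ± 0.79 for *Postn* (adjusted p = 0.000109) and -3.99 ± 0.59 for *C3* (adjusted p = 6.89e-10). The fit also held the Notch3-side sums of both mice and left 2 residual degrees of freedom, so the spread was pooled over genes. No gene kept its own spread between the mice, so a small p does not measure how well that gene repeated between them. The counts moved with the method, to 307 higher and 332 lower with DESeq2, 362 and 379 with a collagen limit of 1%, 283 and 284 with the sums thinned to equal depth, and 919 and 904 with these 2 cell groups fitted alone. The collagen limit of 1% or a stricter member rule (a winning sum of at least 3 UMIs and 2 times each other sum) ended the calls of several abundant genes, among them *Postn*, *Fbln2*, *Thbs2*, *Pmepa1*, *Dcn*, *Apod* and *Gsn*, while their direction stayed.

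The genes with the largest rises included *Fhod3*, *Stra6*, *Kif26b* and *Crabp1*. *Stra6*, a membrane receptor for retinol uptake, was at 164 and 122 CPM in the members and 7.11 and 1.59 in the Scara5-side cells, and *Crabp1*, a retinoic acid binding protein of the cytosol, at 502 and 213 against 7.11 and 11.9. *Fhod3*, an actin-assembling formin, was at 51.6 and 45.3 CPM against 0 and 0.795, and *Kif26b*, a kinesin family member, at 87.9 and 83.0 against 0 and 3.18. In every case both mice were high in the members and near 0 in the Scara5-side cells. The log2 fold changes were 5.75 ± 0.71 for *Fhod3*, 5.46 ± 0.50 for *Stra6*, 4.86 ± 0.51 for *Kif26b* and 4.54 ± 0.40 for *Crabp1*. *Ncam1*, a neural cell adhesion molecule, gave 145 and 115 CPM against 0 and 7.16, and *Nrep*, first described in regenerating nerve, 326 and 261 against 10.7 and 15.1. *Ncam1* rose by 4.29 ± 0.43 and *Nrep* by 4.20 ± 0.38 on the log2 scale. *Mmp13*, the collagenase MMP13, was at 129.9 and 40.7 CPM in the members and 0 and 1.59 in the Scara5-side cells (log2 fold change 5.21 ± 0.61), and its level differed between the members of the mice by more than that of *Kif26b*. DESeq2 did not call *Mmp13*. Fold changes of genes near 0 in the Scara5-side cells moved with the setting, for *Ncam1* to 7.56 and for *Crabp1* to 3.21 with every cell thinned to 2000 UMIs.

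The largest falls included those of *Saa1*, *Lbp*, *Lrg1* and *Gas6*. *Saa1*, an acute-phase apolipoprotein, was at 19.1 and 7.54 CPM in the members and 384 and 524 in the Scara5-side cells. *Lbp*, which carries bacterial lipopolysaccharide to its receptor, was at 88.8 and 99.6 against 1230 and 1374, and *Lrg1*, a secreted leucine-rich glycoprotein, at 13.4 and 16.6 against 185 and 236. The members were low in both mice, with log2 fold changes of -5.23 ± 0.37 for *Saa1*, -3.86 ± 0.44 for *Lbp* and -3.87 ± 0.32 for *Lrg1*. *Gas6*, the ligand of the TAM receptor kinases, was at 27.7 and 45.3 CPM in the members against 668 and 971 (log2 fold change -4.56 ± 0.38). *Gsn*, which encodes the actin-severing protein gelsolin, was at 429.9 and 582 against 4772 and 5000 (-3.32 ± 0.72). *Prg4*, the lubricin gene, was at 56.4 and 164 against 868 and 1198 (-3.41 ± 0.39), and *Chl1*, a neural adhesion molecule, at 26.8 and 12.8 against 228 and 282 (-3.84 ± 0.32). Each of these genes was lower in the members of both mice than in the Scara5-side cells of either.

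**Figure D1:**
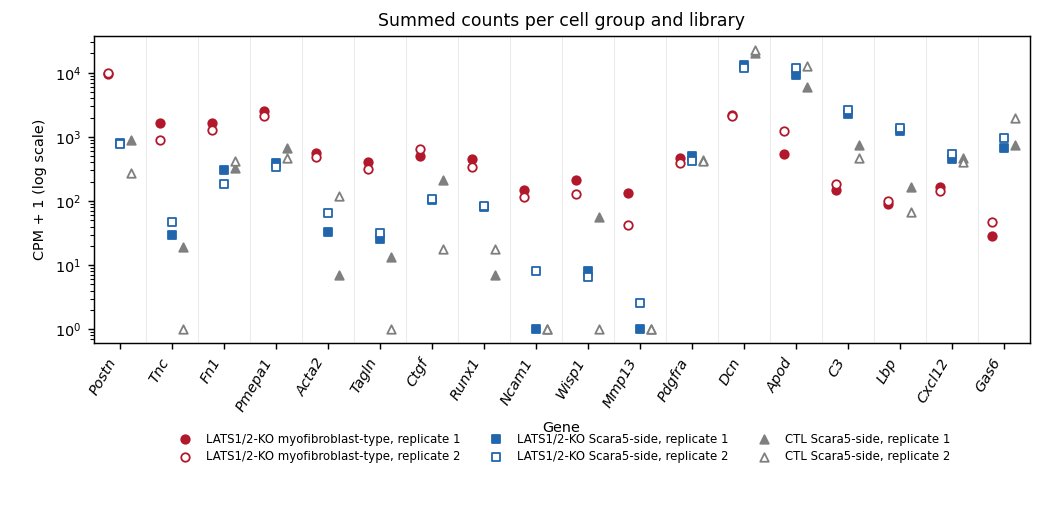
Levels of 18 named genes as CPM + 1 on a log axis, with 1 point per library (filled for replicate 1, open for replicate 2): members in red, LATS1/2-KO Scara5-side cells in blue, CTL Scara5-side cells in grey. From *Postn* to *Mmp13* the members lie above both other groups, *Pdgfra* is level, and from *Dcn* to *Gas6* the members lie below both, except for *Lbp*, which overlaps CTL.

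Matrix glycoproteins and proteoglycans other than collagens were the longest list, and its genes went both ways. Of 52 tested genes, 25 rose (48.1% beside 8.62% of all genes) and 12 fell (23.1% beside 7.91%), with a median log2 fold change of 0.95 beside -0.01 over all genes. *Fn1*, the fibronectin gene, stood at 1645 and 1291 CPM in the members and 299 and 184 in the Scara5-side cells, and *Fbln2*, whose product fibulin-2 binds fibronectin and elastic fibres, at 3133 and 3203 against 540.5 and 661. *Thbs2*, the matricellular protein thrombospondin-2, stood at 1629 and 1730 against 519 and 483. All 3 were higher in the members of both mice, by 2.57 ± 0.47, 2.32 ± 0.62 and 1.68 ± 0.51 on the log2 scale in the same order. *Spp1*, which encodes osteopontin, stood at 2010 and 600.4 CPM in the members and 71.1 and 31.8 in the Scara5-side cells (log2 fold change 4.41 ± 0.50), so that the members of the mice differed about as widely as for *Mmp13*. Immune cells of the same libraries held *Spp1* at 1178 and 576 CPM and epithelial cells at 319 and 319.6, and its log2 fold change was 2.65 with *Cspg4* left out of the member rule. *Cthrc1*, a secreted protein with a collagen-like repeat, stood at 339 and 376 CPM against 181 and 39.0, a gap that was narrow in replicate 1 and wide in replicate 2 (log2 fold change 2.09 ± 0.31, not called by DESeq2). The collagen limit of 1% ended the calls of *Fn1*, *Fbln2* and *Thbs2*.

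Genes of that list that fell included a proteoglycan and a tenascin of loose connective tissue. *Dcn*, the small proteoglycan decorin that binds collagen fibrils and TGF-beta, stood at 2173 and 2111 CPM in the members and 13270 and 11960 in the Scara5-side cells (log2 fold change -2.62 ± 0.78, a call that ended with the collagen limit of 1%). *Tnxb*, which encodes tenascin-X of loose connective tissue, stood at 19.1 and 32.4 against 373 and 284 (-3.65 ± 0.30). *Smoc2* and *Dpt*, both for matrix-associated proteins, stood at 71.7 and 156 and 202 and 250.4 CPM in the members against 320 and 364 and 551 and 485. They fell by 1.66 and 1.25 on the log2 scale. *Eln*, the elastin gene, was at 1086 and 1122 CPM against 523 and 559 and did not pass the threshold (adjusted p = 0.117). It passed under several alternatives, DESeq2 among them.

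In the list of matrix crosslinking and collagen folding 19 of 38 tested genes rose (50% beside 8.62% of all genes), 1 fell (2.63% beside 7.91%) and 18 did not pass, with a median log2 fold change of 0.86. The lysyl oxidases *Loxl2* and *Loxl1*, which crosslink collagen and elastin, stood at 679 and 526 and 764 and 768 CPM in the members and at 149 and 93.8 and 274 and 264 in the Scara5-side cells. *Serpinh1*, the collagen chaperone HSP47, stood at 868 and 766 against 388 and 316. The members were high in both mice for these genes, with log2 fold changes of 2.28 ± 0.34, 1.44 ± 0.35 and 1.14 ± 0.38, the last not called by DESeq2. *Lox* itself was at 718 and 793 CPM against 473 and 499 and did not pass (adjusted p = 0.353). The 1 gene that fell was *Pcolce2*, an enhancer of procollagen processing, at 33.4 and 46.0 against 149 and 192. Of 16 tested collagen genes outside the rule 13 rose (81.2% beside 8.62%) and 0 fell (beside 7.91%). *Col12a1*, which weighed most in the choice of the members, is itself a collagen. The 3 collagens of the stromal rule held a median of 5.65 and 4.70% of UMIs in the members and 1.44 and 0.976% in the Scara5-side cells. How far the rises of collagen and crosslinking genes follow from this choice was not tested. *Col6a3* stood at 3028 and 2424 CPM against 288 and 184 and *Col11a1* at 90.8 and 86.0 against 10.7 and 0.795. The calls of *Loxl1*, *Serpinh1* and *Col6a3* ended with the collagen limit of 1%.

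Of 41 tested genes of proteases and their inhibitors 12 rose (29.3% beside 8.62% of all genes) and 4 fell (9.76%, near the 7.91% of all genes), with a median of 0.20. *Mmp11*, a stromal metalloprotease, stood at 473 and 474 CPM in the members and 171 and 169 in the Scara5-side cells, and *Serpine2*, a serpin that inhibits thrombin and plasminogen activators, at 666 and 351 against 78.2 and 89.9. *Pcsk5*, a proprotein convertase named from the comparison with perivascular cells, stood at 444 and 404 against 32.0 and 54.9. Members of both mice were higher for each, by 1.40 ± 0.31, 2.26 ± 0.35 and 3.05 ± 0.33 on the log2 scale. Perivascular cells held *Serpine2* at 1721 and 465 CPM, above the members, and *Mmp11* at 85.5 and 12.5, below them. The aggrecanase *Adamts5* stood at 82.2 and 141 CPM against 366 and 477 and its relative *Adamts1* at 149 and 158 against 263 and 492, and these fell by 1.99 and 1.37 on the log2 scale.

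Most contractile and stress fibre genes rose. Of 27 tested genes 21 rose, 77.8% beside 8.62% of all genes, and 0 fell, beside 7.91% of all genes. The median log2 fold change was 1.39. *Acta2*, the smooth muscle actin gene, stood at 559.8 and 482 CPM in the members and 32.0 and 62.8 in the Scara5-side cells, and *Tagln*, the actin-binding protein transgelin, at 409 and 314 against 24.9 and 31.0. *Palld*, the actin-crosslinking protein palladin, stood at 633 and 500.1 against 74.7 and 56.5. The members lay above the Scara5-side cells in both mice, with log2 fold changes of 3.15 ± 0.35, 3.42 ± 0.36 and 3.06 ± 0.35, and the first of them was not called by DESeq2. *Myl6* and *Myl9*, a pair of myosin light chains, stood at 904 and 861 and 83.1 and 52.0 CPM in the members and at 331 and 358 and 3.56 and 2.39 in the Scara5-side cells. *Myl9* rose by 4.31 ± 0.53 and *Myl6* by 1.27 ± 0.39 on the log2 scale, and DESeq2, the collagen limit of 1% and the stricter rule each ended the call of *Myl6*. Epithelial cells held *Myl6* at 1060 and 1005 CPM, above the members.

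Single cells were also scored for *Acta2*, *Tnc* and *Postn*, though 0 UMIs in a cell at this depth do not show that it lacks the transcript. A UMI of *Acta2* was seen in 46.1% of members of replicate 1 (82 of 178; 95% interval 38.6 to 53.7) and 45.1% of those of replicate 2 (97 of 215; 38.3 to 52.0). After every cell was thinned to 2000 UMIs the shares were 34.9 and 34.6%, against 6.25 and 4.17% of Scara5-side cells. Immune cells, which should lack *Acta2*, gave 13.4 and 7.43% unthinned and 8.47 and 4.15% thinned, at a median depth of 4245 and 3400 UMIs. The members thus stood above that background in both mice, and the Scara5-side cells lay about at it. *Tnc* was found in 68.4 and 50.5% of thinned members (78.1 and 61.9% unthinned), against 10.4 and 4.17% of thinned Scara5-side cells and 5.08 and 3.73% of thinned immune cells. *Postn* was found in 152 of 152 and 177 of 182 thinned members, and in 30.5 and 25.3% of thinned immune cells, so that *Postn* RNA was also counted in cells of another type.

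Serum response factor, which switches on many actin genes, binds the CArG box, and the box can be looked up in promoters. In the 250 bases upstream of gene starts from RefSeq (GRCm38.p6), a CArG box, searched by its name alone on both strands, occurred in 439 of 27025 genes (1.62%). It occurred in 7 of 30 contractile genes in that table (23.3%). *Acta2* and *Tagln* were not among these 7. The search covered these 250 bases alone, so it does not show that other genes lack such a site. Of the 21 contractile genes that rose 20 were in the table, and 5 of these 20 held the box (25.0%). Those 5 are printed since they carry both the rise and the box, which the capitals mark; each is given 5′ to 3′ on the strand of its gene. They lie at chr2:156775283-156775332 (+), chr10:128493030-128493079 (-), chr10:79988524-79988573 (+), chr14:20929151-20929200 (+) and chr1:43163963-43164012 (-). Apart from *Myl9* and *Myl6* these genes were chosen after their values were seen. A match describes letters only.
Myl9: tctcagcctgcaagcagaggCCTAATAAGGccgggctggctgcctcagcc
Myl6: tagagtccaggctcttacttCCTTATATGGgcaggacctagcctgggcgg
Cnn2: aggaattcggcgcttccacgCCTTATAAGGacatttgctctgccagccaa
Vcl: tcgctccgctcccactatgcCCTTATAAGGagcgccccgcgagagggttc
Fhl2: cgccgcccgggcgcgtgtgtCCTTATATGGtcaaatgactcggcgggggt

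Of 30 tested TGF-beta and activin genes 9 rose (30.0% beside 8.62% of all genes) and 2 fell (6.67% beside 7.91%), with a median of 0.34. *Pmepa1*, a TGF-beta target that dampens the pathway, stood at 2495 and 2104 CPM in the members and 384 and 334 in the Scara5-side cells. *Itgb5*, an integrin chain that can release latent TGF-beta, stood at 406 and 420.1 against 81.8 and 60.5, and *Ltbp2*, a relative of the latent TGF-beta binding proteins, at 210.2 and 155 against 0 and 11.1. The members were high in both mice, with log2 fold changes of 2.60 ± 0.57, 2.54 ± 0.32 and 4.14 ± 0.39, the last not called by DESeq2. Epithelial cells of the same libraries held *Pmepa1* at 899 and 1056 CPM. The co-receptor *Tgfbr3* stood at 88.8 and 99.6 CPM against 306 and 329 and the activin chain *Inhbb* at 45.9 and 41.5 against 135 and 96.2, and both fell, by 1.82 and 1.42. The ligand *Tgfb2* stood at 114 and 133 against 32.0 and 31.0 and rose by 1.95 ± 0.31. The call of *Pmepa1* ended with the collagen limit of 1% and with the stricter rule.

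BMP genes fell more often than genes at large. Of 17 tested genes 0 rose (beside 8.62% of all genes) and 6 fell (35.3% beside 7.91%), with a median of -0.24. *Id3*, an inhibitor of helix-loop-helix factors and a known BMP target, stood at 291 and 373 CPM in the members and 633 and 527 in the Scara5-side cells. *Id4* stood at 5.73 and 7.54 against 14.2 and 27.0 and *Bmper*, a secreted BMP modulator, at 8.60 and 5.28 against 42.7 and 15.1. The members were low in both mice, and the genes fell by 0.86, 1.76 and 1.97, though none of these 3 calls held with DESeq2. The other genes that fell, chosen after their values were seen, did so by more and were called by DESeq2 as well. *Gdf10*, a BMP-like growth factor, stood at 2.87 and 2.26 CPM against 81.8 and 34.2 (log2 fold change -4.39 ± 0.50), and the ligand *Bmp4* at 3.82 and 4.53 against 35.6 and 45.3 (-3.28 ± 0.46). The BMP antagonist *Chrdl1* was at 0 and 0 CPM in the members against 81.8 and 47.7.

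WNT genes rose more often than genes at large. Of 28 tested genes 11 rose (39.3% beside 8.62%) and 3 fell (10.7%, near the 7.91% of all genes), with a median of 0.65. *Wisp1*, a matricellular WNT target of the CCN family, stood at 213 and 129.7 CPM in the members and 7.11 and 5.57 in the Scara5-side cells. *Fzd1*, a WNT receptor, stood at 365 and 329.6 against 139 and 67.6, *Wls*, needed for WNT secretion, at 277 and 253 against 99.6 and 123, and *Dkk3*, a Dickkopf relative, at 442 and 452 against 167 and 196. The members lay above in both mice, with log2 fold changes of 4.53 ± 0.43, 1.84 ± 0.30, 1.11 ± 0.28 and 1.20 ± 0.30. *Sfrp4*, a secreted WNT antagonist, stood at 1.91 and 3.02 CPM against 85.3 and 51.7, and the receptor *Fzd4* at 4.78 and 8.30 against 49.8 and 28.6. These fell by 4.65 and 2.43 on the log2 scale, and *Wisp2*, another CCN gene, fell by 1.01 with no call by DESeq2.

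The PDGF receptors differed from each other. *Pdgfrb*, the receptor shared by fibroblasts and pericytes, stood at 374 and 351 CPM in the members and 117 and 154 in the Scara5-side cells and rose by 1.28 ± 0.30 on the log2 scale. *Pdgfra*, the receptor typical of fibroblasts, stood at 475 and 392 against 508 and 413 and did not pass (adjusted p = 0.819). The members overlapped the Scara5-side cells for *Pdgfra* and lay above them for *Pdgfrb*. Of 14 tested PDGF and FGF genes 6 rose (42.9% beside 8.62% of all genes) and 1 fell (7.14% beside 7.91%), *Fgf7*, an epithelial growth factor, which stood at 4.78 and 5.28 CPM against 46.2 and 19.1. The feedback genes *Spry1* and *Dusp6* of receptor kinase signalling stood at 66.9 and 64.9 and 48.7 and 67.1 CPM against 49.8 and 27.8 and 3.56 and 31.8. They rose by 0.90 ± 0.32 and 1.27 ± 0.33, and DESeq2 called neither of them nor *Fgf7*. *Dusp6* was higher in epithelial cells, at 114 and 143 CPM. The *Spry1* relatives *Spry2* and *Spry4*, chosen after their values were seen, stood at 38.2 and 43.0 CPM against 39.1 and 66.8 for *Spry2* and at 28.7 and 14.3 against 32.0 and 16.7 for *Spry4*. Neither passed, and both leaned the other way (log2 fold change -0.57 and -0.25).

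The IGF and vascular lists were mixed. Of 12 tested IGF genes 2 rose and 5 fell (16.7 and 41.7% beside 8.62 and 7.91% of all genes), with a median of -0.10. The binding protein genes *Igfbp2* and *Igfbp4* went opposite ways, with 492 and 274 CPM in the members and 128 and 75.6 in the Scara5-side cells for *Igfbp2* and 715 and 527 against 2535 and 2069 for *Igfbp4*. Epithelial and immune cells of the same libraries held more *Igfbp2* than the members, at 1122 and 1378 and 722 and 938 CPM. *Pappa*, a protease that cleaves the product of *Igfbp4*, stood at 56.4 and 77.7 against 21.3 and 21.5. The log2 fold changes were 1.82 ± 0.30, -1.97 ± 0.58 and 1.68 ± 0.34, with the call of *Igfbp4* ended by the collagen limit of 1% and that of *Pappa* by thinned sums. Of 17 tested vascular genes 8 rose and 3 fell (47.1 and 17.6%), with a median of 0.71. *Thbs1*, an inhibitor of vessel growth, stood at 222 and 266 CPM against 81.8 and 109 and *Angptl2*, an angiopoietin-like protein, at 345 and 219.5 against 88.9 and 66.8, both higher in the members of both mice (log2 fold change 1.25 ± 0.29 and 1.72 ± 0.30). *Thbs1* stood higher still in epithelial cells, at 425 and 537 CPM, and in immune cells, at 582 and 720.2. *Vegfa*, the main vessel growth factor, stood at 46.8 and 42.2 against 81.8 and 122 and fell by 1.35, a call lost with thinned cells. *Adm*, the vasodilator adrenomedullin, stood at 34.4 and 21.9 against 24.9 and 122, so the mice disagreed in direction although it passed the test, and DESeq2 did not call it.

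A minority of known YAP/TAZ targets rose, though a larger share than of genes at large. Of 16 tested genes 4 rose and 1 fell (25.0 and 6.25% beside 8.62 and 7.91% of all genes), with a median of 0.17. *Ctgf*, the CCN family gene most used as a YAP/TAZ readout, stood at 507 and 635 CPM in the members and 103 and 107 in the Scara5-side cells and rose by 2.38 ± 0.34. Epithelial cells of the same libraries held *Ctgf* at 483 and 717 CPM. *Cyr61*, its CCN relative, stood at 244 and 336 against 178 and 383 and did not pass (adjusted p = 0.979). The members were thus above the Scara5-side cells for *Ctgf* and overlapped them for *Cyr61*. *Ankrd1*, a further target, was at 19.1 and 11.3 CPM in the members against 300.4 and 243 in epithelial cells, and was too low for the test. *Myof*, a membrane repair protein, stood at 113 and 114 against 35.6 and 33.4 and rose by 1.65 ± 0.31, while *F3*, tissue factor, stood at 53.5 and 51.3 against 114 and 115 and fell by 1.22. *Lats1*, *Lats2*, *Yap1* and *Wwtr1* did not pass, at 44.9 and 34.7, 49.7 and 46.0, 52.5 and 58.8 and 182 and 167 CPM in the members, except that *Wwtr1* passed with every cell thinned, at 0.77. *Tead1*, a DNA-binding partner of YAP and TAZ, stood at 107 and 84.5 against 46.2 and 49.3 (log2 fold change 0.83 ± 0.29, not called by DESeq2). Epithelial cells held *Myof* at 179 and 153 and *Tead1* at 120.2 and 119 CPM, above the members.

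Of 16 tested integrin and cadherin list genes 9 rose and 3 fell (56.2 and 18.8% beside 8.62 and 7.91% of all genes), with a median of 1.04. *Itgb1*, the shared integrin chain, stood at 760.5 and 680.3 CPM in the members and 313 and 258 in the Scara5-side cells, and *Cdh11*, the mesenchymal cadherin, at 483 and 352 against 196 and 158. *Thy1*, a surface glycoprotein of fibroblasts, stood at 585 and 517 against 284 and 258. All lay higher in the members of both mice, by 1.27 ± 0.35, 1.15 ± 0.30 and 0.95 ± 0.32 on the log2 scale. Perivascular cells held *Itgb1* at 877 and 781 CPM, above the members, and *Cdh11* at 64.1 and 24.9 and *Thy1* at 481 and 170, below them. *Ddr2*, a collagen receptor kinase, stood at 71.7 and 75.4 CPM against 252 and 228, and *Icam1*, a leukocyte adhesion molecule, at 46.8 and 71.7 against 149 and 200.4. They fell by 1.76 and 1.62. The collagen limit of 1% ended the calls of *Itgb1*, *Thy1* and *Cdh11*.

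Cytokine and complement genes fell in the members more often than genes at large. Of 32 tested chemokine and cytokine genes 7 rose and 18 fell (21.9 and 56.2% beside 8.62 and 7.91%), with a median of -0.93. *Saa3*, an acute-phase protein, stood at 232 and 186 CPM in the members and 1227 and 1942 in the Scara5-side cells, *Cxcl12*, a chemokine that holds and attracts leukocytes, at 164 and 142 against 452 and 549, and *Ccl11*, which attracts eosinophils, at 146 and 178 against 402 and 261. These were low in the members of both mice, by -2.97 ± 0.48, -1.79 ± 0.30 and -1.03 ± 0.27 on the log2 scale, the last not called by DESeq2. The chemokines *Ccl8* and *Cxcl14* went the other way, with 526 and 749.7 and 1031 and 859 CPM in the members and 217 and 246 and 391 and 441 in the Scara5-side cells. They rose by 1.39 ± 0.33 and 1.09 ± 0.39, and neither call held with the collagen limit of 1%. *Il6*, the cytokine often used to mark inflammatory fibroblasts, stood at 20.1 and 20.4 against 17.8 and 30.2 and did not pass (adjusted p = 0.461).

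Of 18 tested complement genes 3 rose and 10 fell (16.7 and 55.6% beside 8.62 and 7.91% of all genes), with a median of -1.38, the lowest of the 23 lists. *Serping1*, which inhibits the first complement protease, stood at 658 and 595 CPM in the members and 2475 and 2388 in the Scara5-side cells, and *C1s1*, that protease's subunit, at 226 and 223 against 512 and 562. Their log2 fold changes were -2.03 ± 0.59 and -1.33 ± 0.31, and the members were low in both mice. The 3 that rose were *C1qtnf3*, *C1qtnf2* and *Colec12*, for C1q-like secreted proteins and a scavenger receptor, none of them a protein of the cascade itself. *C1qtnf3* stood at 202 and 128 against 3.56 and 11.9 and rose by 3.72 ± 0.38. The calls of *Serping1* and *Colec12* ended with the collagen limit of 1%.

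Of 19 tested adipogenic and lipid genes 0 rose (beside 8.62% of all genes) and 8 fell (42.1% beside 7.91%), with a median of -0.70. *Apod* and *Apoe*, for lipid-carrying apolipoproteins, stood at 547 and 1220 and 199.7 and 345 CPM in the members and at 9128 and 11920 and 1529 and 1534 in the Scara5-side cells. *Lpl*, for lipoprotein lipase, stood at 389.8 and 403 against 718 and 978. All 3 were lower in the members of both mice, by -3.78 ± 0.80, -2.61 ± 0.47 and -1.17 ± 0.37 on the log2 scale. The calls of *Apod* and *Lpl* ended with the collagen limit of 1% and the stricter rule.

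Of 39 tested transcription factor genes 9 rose and 6 fell (23.1 and 15.4% beside 8.62 and 7.91% of all genes), with a median of 0.08. *Runx1*, a factor of blood and mesenchyme, stood at 447 and 339 CPM in the members and 78.2 and 83.5 in the Scara5-side cells and rose by 2.11 ± 0.31. Epithelial cells held it at 258 and 268 CPM. *Tcf4*, a helix-loop-helix factor, stood at 651 and 607 against 299 and 315 (0.95 ± 0.34) and *Egr2*, a zinc finger factor, at 100.3 and 107 against 39.1 and 53.3 (1.03 ± 0.29). The members were above in both mice for these 3 genes. *Osr1* and *Osr2*, odd-skipped factors of connective tissue, stood at 35.4 and 51.3 and 25.8 and 38.5 CPM against 132 and 134 and 103 and 165, and *Nfib*, a nuclear factor I gene, at 70.7 and 76.9 against 217 and 177. They fell by 1.62, 2.13 and 1.43. The calls of *Tcf4* and *Egr2* ended with the collagen limit of 1%.

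Guidance and Notch genes gave smaller groups. Of 23 tested guidance genes 7 rose and 4 fell (30.4 and 17.4% beside 8.62 and 7.91% of all genes). *Slit2*, a secreted guidance cue, stood at 100.3 and 157 CPM in the members and 49.8 and 58.1 in the Scara5-side cells and rose by 1.25 ± 0.29, while the netrin gene *Ntn1* and the neurotrophin receptor gene *Ntrk2* stood at 10.5 and 11.3 and 24.8 and 28.7 CPM against 46.2 and 45.3 and 167 and 161. The latter pair fell by 2.11 and 2.65, and the call of *Slit2* ended with the collagen limit of 1% and that of *Ntn1* with thinned cells. Of 10 tested Notch and Hedgehog genes 3 rose and 1 fell (30.0 and 10.0%). *Heyl*, a Notch target, stood at 47.8 and 37.7 against 3.56 and 3.18 and rose by 3.47 ± 0.54, and perivascular cells held it at 64.1 and 87.2 CPM.

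Of 12 tested cell cycle genes 1 rose and 2 fell (8.33 and 16.7% beside 8.62 and 7.91% of all genes), with a median of -0.14, and *Mki67*, the proliferation marker, was at 14.3 and 11.3 CPM in the members and 7.11 and 7.16 in the Scara5-side cells, too low for the test. *Cdkn1a*, the cell cycle inhibitor p21, stood at 78.3 and 79.2 against 188 and 180.5 and fell by 1.29. A UMI of *Mki67* was found in 9 of 178 and 6 of 215 members, and in 1.32 and 0.549% of thinned members against 8.47 and 7.47% of thinned immune cells. Of 18 tested glycolysis and hypoxia genes 2 rose and 3 fell (11.1 and 16.7%), with a median of 0.02. Of 27 interferon and MHC genes 0 rose and 4 fell (14.8%), among them *Ifitm1*, for an interferon-induced membrane protein, at 26.8 and 53.5 CPM against 416 and 663. Of 26 immediate early and dissociation genes 0 rose and 5 fell (19.2%), with a median of -0.69, and the stress factor gene *Atf3* stood at 233 and 244 against 654 and 752. No dissociation gene thus passed as higher in the members than in the cells processed with them.

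**Figure D2:**
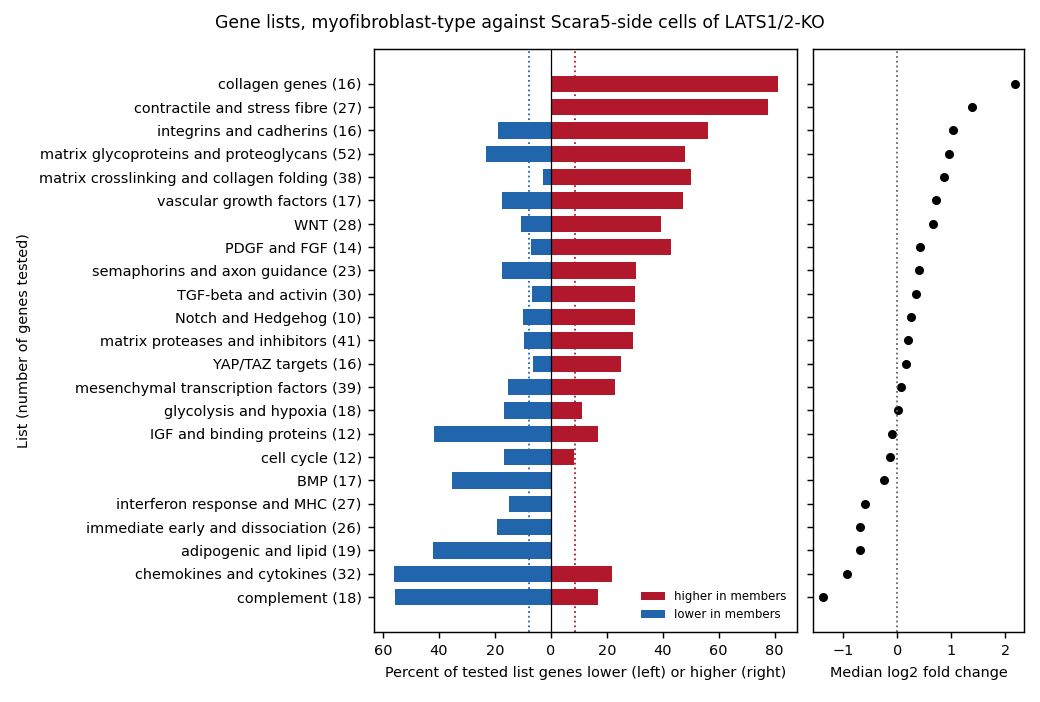
Left, the percent of tested genes of each of 23 lists that were higher (red) or lower (blue) in the members than in Scara5-side cells of LATS1/2-KO, with dotted lines at 8.62 and 7.91% for all genes; the number tested is in brackets. Right, the median log2 fold change of each list, with a dotted line at -0.01 for all genes; it runs from -1.38 for complement to 2.18 for collagen genes.

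The *EYFP* reporter of Cre activity was found no more often in the members than in immune cells. A UMI of *EYFP* was found in 7 of 178 members of replicate 1 (3.93%; 95% interval 1.60 to 7.93) and 3 of 215 of replicate 2 (1.40%; 0.289 to 4.02), with a median depth of 4978 and 4206 UMIs. Immune cells gave 4.03 and 3.41% and epithelial cells 19.3 and 24.3%. After thinning to 2000 UMIs the members gave 1.32 and 0.549%, immune cells 3.39 and 1.66% and epithelial cells 8.20 and 9.80%. The members were thus at or under the share of immune cells in both libraries. Immune cells are not a matched background, since their 12 epithelial markers summed to 6035 and 3928 CPM against 1578 and 855 in the members. *Krt8*, whose promoter drives the Cre, was at 438 and 207 CPM in the members, 341 and 226 in the Scara5-side cells and 6334 and 5639 in epithelial cells.

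Gene levels in the members followed the margin by which a cell met the rule, which is given as a description. That margin is made of the markers that chose the cells and follows depth, so nothing on separate states is concluded from it. The margin is the marker UMIs of the members' side minus the larger of the other sums. It had a median of 14 in replicate 1 and 9 in replicate 2, with 17 and 38 cells at a margin of 1, and 20 and 59 stromal cells just outside at 0. Members with a margin of 10 or more (112 and 103 cells) held *Tnc* at 2045 and 1230 CPM, those with a margin of 1 to 3 (31 and 61 cells) at 413 and 239, and cells outside at 0 to -3 (46 and 129 cells) at 168 and 114. *C3* ran the other way over the same cells, from 67.3 and 65.7 CPM through 685 and 660 to 1221 and 1506. *Dcn* stood at 1684 and 1568 CPM with a margin of 10 or more, 5246 and 4460 with 1 to 3, and 11320 and 7715 just outside. Cells just inside the rule thus lay between the clear members and the cells outside for these 3 genes in both mice. Wide margins went with deep cells, since the median was 5702 and 8386 UMIs per cell at 10 or more and 2216 and 2582 at 1 to 3. *Acta2* stood at 642 and 626 CPM with a margin of 10 or more, and at 52.7 and 217 with 1 to 3. Just outside it stood at 73.8 and 194, so that the *Acta2* of cells just inside was no higher than outside in replicate 1.

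**Figure D3:**
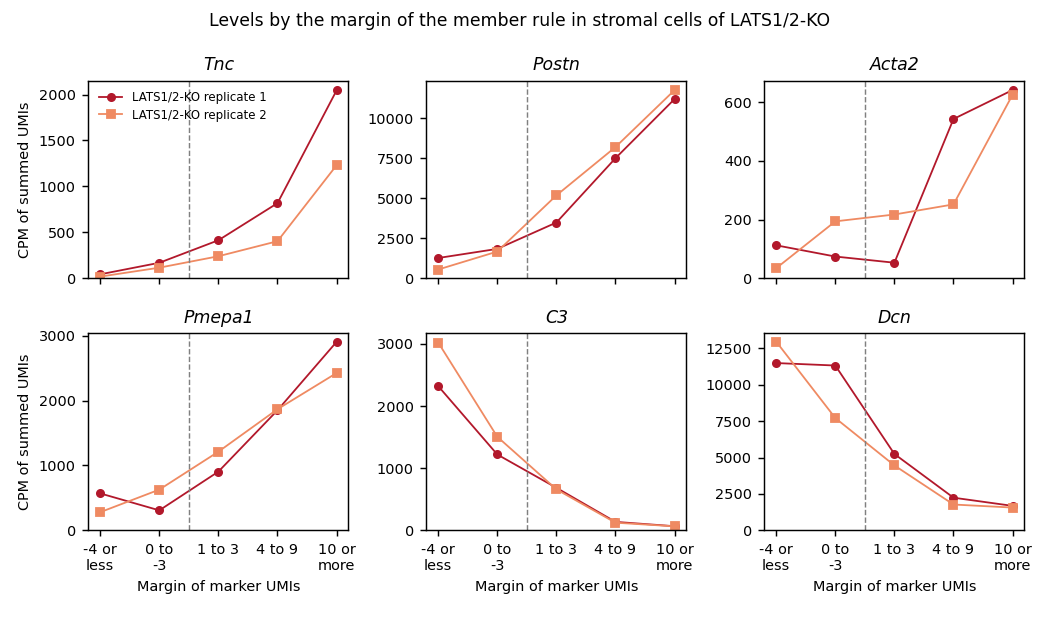
CPM of 6 genes in stromal cells of the LATS1/2-KO libraries, summed over cells with a like margin of the member rule (dark red circles, replicate 1; orange squares, replicate 2); members lie right of the dashed line. Among members *Tnc*, *Postn* and *Pmepa1* climb and *C3* and *Dcn* drop toward wide margins, and *Acta2* is highest, at 642 and 626 CPM, in the widest band.

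*C3* was found less often in members with an *Acta2* UMI than in the others. In members thinned to 2000 UMIs (152 and 182 cells), *C3* was found in 5.66 and 7.94% of cells with an *Acta2* UMI and in 17.2 and 21.0% of cells without. *Tnc* was found in 79.2 and 66.7% of cells with *Acta2* and 62.6 and 42.0% of those without. For *Tnc* and *C3* the gap was smaller, with *C3* in 12.5 and 13.0% of cells with *Tnc* and 14.6 and 20% of those without. These shares are a description with no test, and only 3 and 5 cells held both *Acta2* and *C3*. Members with a margin of 1 to 3 were higher in *C3* and lower in *Acta2* than those with wide margins. The part of these cells near the cut in the gap was not tested.

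Perivascular cells held more smooth muscle RNA than the members. This comparison asks what the myofibroblast-type fibroblasts share with vessel-wrapping cells, which are contractile as well. The stromal rule left 7 and 3 Notch3-side cells with 29823 and 3871 UMIs, and with these 24 of 7195 genes were higher in the members (0.334%) and 12 lower (0.167%). The median log2 fold change of all genes was 0.87 in that comparison, so its scale is off centre, and its counts changed with most alternatives. *Tnc* was among the 24, at 1645 and 897 CPM against 201 and 0 and higher by 3.71 ± 0.75 on the log2 scale, and *Lox* stood at 718 and 793 against 33.5 and 0 (5.39 ± 1.13). The calls of *Tnc* and *Lox* both ended with a collagen limit of 1% or the stricter member rule.

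The Notch3-side cells were therefore also taken with 2 changes, a choice made after their number was seen: the collagen limit was left out, and the sum of the *Notch3* side had to reach at least 3 UMIs and 2 times each other sum. This gave 30 and 52 cells with 93539 and 240683 UMIs. The collagens of the rule held a median of 5.65 and 4.70% of the UMIs of a member and 0.180 and 0.0654% of those of a perivascular cell, a contrast built into the choice, so nothing is read from a gap in matrix genes. *Fbln2* stood at 3133 and 3203 CPM in the members and 171 and 37.4 in these perivascular cells, *Fn1* at 1645 and 1291 against 321 and 120.5, and *Eln* at 1086 and 1122 against 128 and 58.2. *Myh11*, the smooth muscle myosin gene, stood at 3.82 and 6.79 against 620.1 and 909.9, and *Tagln* at 409 and 314 against 3389 and 7653. For *Tagln* the members lay above the Scara5-side cells and far below the perivascular cells of both mice. *Acta2* stood at 559.8 and 482 CPM in the members and 2181 and 4196 in the perivascular cells, between the Scara5-side and perivascular levels. The 12 epithelial markers, led by *Krt18* at 866 and 1832 CPM, summed to 2523 and 5954 CPM in the perivascular cells against 1578 and 855 in the members. The part of epithelial transcripts in these differences was not tested.

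Of 7642 genes 737 were higher in the members (9.64%) and 512 lower (6.7%), by edgeR's quasi-likelihood test with mouse as block and Benjamini-Hochberg adjustment, with a median log2 fold change of 0.05. The log2 fold changes were 5.47 ± 0.44 for *Fbln2*, 3.12 ± 0.29 for *Fn1*, 3.97 ± 0.33 for *Eln*, -6.89 ± 0.30 for *Myh11*, -3.62 ± 0.32 for *Tagln* and -2.32 ± 0.28 for *Acta2* (SE, n = 2 mice). Of 29 tested contractile genes 2 were higher in the members and 14 lower (6.90 and 48.3% beside 9.64 and 6.7% of all genes), with a median of -0.83. The pair of contractile genes that were higher included *Palld*, at 633 and 500.1 CPM against 96.2 and 91.4. DESeq2 gave 360 higher and 281 lower. The members and the perivascular cells were thus taken by different conditions.

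Further genes of that comparison are given as levels. *Cthrc1*, *Svep1*, *Fbn2* and *Sfrp1*, for secreted or matrix proteins, were at 0 in the perivascular cells of both mice and at 339 and 376, 196 and 167, 229 and 158 and 249 and 109 CPM in the members, with collagen asked for on the members' side alone. *Fabp4*, a fatty acid carrier of capillaries and fat, stood at 259.9 and 153 CPM in the members against 12560 and 10390, and *Ednrb*, an endothelin receptor, at 55.4 and 14.3 against 1326 and 308. Both were high in the perivascular cells, and *Ednrb* was at 0 in the Scara5-side cells, so that its level in the members was at least 5.19- and 6.01-fold higher than there.

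Set beside fibroblasts of control glands, the members carried much more periostin, tenascin-C and fibronectin RNA and less decorin and gelsolin RNA. This comparison asks how the myofibroblast-type fibroblasts differ from what fibroblasts look like without the deletion, and condition and cell group change together in it. Scara5-side cells of CTL, 39 and 12 cells with 163180 and 59667 UMIs, held *Postn* at 901 and 268 CPM, *Tnc* at 18.4 and 0 and *Fn1* at 325 and 419, against 9694 and 9923, 1645 and 897 and 1645 and 1291 in the members. They held *Dcn* at 20290 and 22340 and *Gsn* at 27520 and 27420 CPM, against 2173 and 2111 and 429.9 and 582. The members of both LATS1/2-KO mice lay outside the range of both CTL mice for all 5 genes.

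Of 7035 genes 469 were higher in the members (6.67%) and 458 lower (6.51%), by edgeR's quasi-likelihood test with Benjamini-Hochberg adjustment, with a median log2 fold change of 0.06. The log2 fold changes were 4.01 ± 0.33 for *Postn*, 6.63 ± 0.50 for *Tnc*, 2.12 ± 0.22 for *Fn1*, -3.21 ± 0.17 for *Dcn* and -5.65 ± 0.22 for *Gsn* (SE, n = 2 mice per group). The CTL sums were small, and the counts fell to 213 higher and 220 lower with DESeq2, while leaving out CTL replicate 1 gave 284 and 138. This comparison and the within-gland one share the members, so the 2 are given side by side and not as independent results. The 12 epithelial markers summed to 545 and 285 CPM in the CTL cells against 1578 and 855 in the members, led by *Krt18* at 85.8 and 83.8 against 474 and 226. Macrophage markers summed to 18.4 and 0 against 112.7 and 101.1, and the part of such transcripts in the differences from CTL, the contractile genes among them, was not tested.

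Some genes at 0 in the CTL fibroblasts were plain in the members. *Ctla2a*, a cathepsin inhibitor homologue, stood at 1142 and 629.8 CPM in the members (the lower of these at least 34.3-fold above replicate 1 of CTL and 12.5-fold above replicate 2, with 3 counts as the floor in each), and at 42.7 and 1008 in the Scara5-side cells of the same glands, which differed widely between the mice. *F5*, for coagulation factor V, stood at 310.5 and 230 (12.5- and 4.57-fold in the same way) and *Tfpi2*, a Kunitz-type protease inhibitor, at 131 and 136 (7.12- and 2.60-fold). *Saa3* stood at 232 and 186 CPM in the members (10.1- and 3.71-fold), although the Scara5-side cells beside them held more. Members near the cut held more *Saa3*, at 667.8 and 321.4 CPM with a margin of 1 to 3 and 72.65 and 150.5 with 10 or more. The folds therefore hold for all members summed and not for the clear members alone. Summed in this way, the members lay above CTL fibroblasts and below their neighbours for *Saa3*. *Prg4* followed the same order, with 0 and 0 CPM in CTL, 56.4 and 164 in the members and 868 and 1198 in the Scara5-side cells. Its folds over CTL were only 3.07 and 1.12 in the same way, and its call against CTL ended with the collagen limit of 1%.

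*Runx1* was low in CTL fibroblasts, at 6.13 and 16.8 CPM, intermediate in the Scara5-side cells of LATS1/2-KO, at 78.2 and 83.5, and highest in the members, at 447 and 339. The log2 fold change against CTL was 5.50 ± 0.49 (adjusted p = 1.21e-06). *Lox* and *Eln* did not pass against the Scara5-side cells at the main settings. They stood at 79.7 and 235 and 172 and 184 CPM in CTL and at 718 and 793 and 1086 and 1122 in the members. Their log2 fold changes were 2.65 ± 0.32 and 2.74 ± 0.23. *Mmp11* stood at 24.5 and 33.5 in CTL against 473 and 474 (4.21 ± 0.36), and *Serpine2* at 12.3 and 67.0 against 666 and 351 (4.27 ± 0.52). The members were high in both mice for each of these genes.

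Some genes called within the LATS1/2-KO glands did not pass against CTL or passed in the other direction, and the difference between the comparisons was not tested. *Crabp1* stood at 221 and 201 CPM in CTL fibroblasts against 502 and 213 in the members, which overlapped, and did not pass (adjusted p = 0.17). *Myl9* stood at 67.4 and 151 in CTL against 83.1 and 52.0 and did not pass either (adjusted p = 0.649). *C3* did pass, and stood at 735 and 469 CPM in CTL, below the 2286 and 2660 of the LATS1/2-KO Scara5-side cells and above the members, and differed from the members by -1.84 ± 0.24 on the log2 scale. *Lpl*, which fell within the glands, stood at 257 and 151 CPM in CTL against 389.8 and 403 in the members and was higher than CTL by 0.93 ± 0.26 on the log2 scale. *Inhbb*, which also fell there, stood at 0 and 0 CPM in CTL against 45.9 and 41.5 (adjusted p = 0.00918), and DESeq2 called neither gene against CTL. With 3 counts as the floor, *Inhbb* in the members was at least 2.26-fold above CTL replicate 1 but only 0.825-fold of replicate 2. The 0 in replicate 2 therefore does not place CTL below the members. *Igfbp6* and *Igfbp3*, for a pair of IGF binding proteins, stood at 2102 and 2682 and 98.0 and 0 in CTL against 202 and 243 and 759.5 and 588 in the members, with log2 fold changes of -3.30 ± 0.20 and 3.37 ± 0.41.

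The lists ran as follows against CTL, beside 6.67% of all genes higher and 6.51% lower. Contractile genes rose in 17 of 26 tested (65.4%) and fell in 0, with a median of 1.63 beside 0.06 over all genes, and matrix glycoproteins rose in 22 of 56 and fell in 18 (39.3 and 32.1%), with a median of 0.20. TGF-beta and activin genes rose in 10 of 29 and fell in 3 (34.5 and 10.3%; median 1.14), and WNT genes rose in 8 of 24 and fell in 1 (33.3 and 4.17%; 1.23). YAP/TAZ targets rose in 4 of 17 and fell in 1 (23.5 and 5.88%; 0.97). Chemokine and cytokine genes rose in 4 of 29 and fell in 13 (13.8 and 44.8%), with a median of -0.92, and complement genes rose in 2 of 16 and fell in 5 (12.5 and 31.2%; -0.62). Immediate early and dissociation genes rose in 2 of 26 and fell in 11 (7.69 and 42.3%; -0.61). Adipogenic and lipid genes rose in 3 of 16 and fell in 5 (18.8 and 31.2%; -0.65), and interferon and MHC genes rose in 4 of 24 and fell in 7 (16.7 and 29.2%; -0.41). Within the LATS1/2-KO glands 0 of 19 and 0 of 27 rose, beside 8.62% of all genes, and the difference was not tested. Crosslinking genes were 11 higher and 8 lower of 38 (28.9 and 21.1%). Within the LATS1/2-KO glands 19 and 1 of 38 passed, and the difference between the comparisons was not tested. *Serpinh1* stood at 1483 and 1810 CPM in CTL against 868 and 766 in the members. It fell by 0.89 on the log2 scale, a call that DESeq2 did not make.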

How the data were processed

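The deposited files hold UMI counts per gene and barcode from 10x 3′ v3 libraries, which the authors made with Cell Ranger on mm10 (version 3.1.0 per the submitters' notes, 6.1.2 per the file headers). Kept barcodes had over 500 detected genes, with mitochondrial genes below 20% of UMIs (4914 and 3515 CTL, 4499 and 5272 LATS1/2-KO), with a median of 7443.5, 10141, 6724 and 5962.5 UMIs. The member rule and the 23 gene lists were chosen with earlier results of these data known. Counts were summed per cell group and library and tested with edgeR 4.0.16 (limma 3.58.1, R 4.3.3; quasi-likelihood F test after TMM scaling and filterByExpr; Benjamini-Hochberg over all genes tested), with mouse as block within LATS1/2-KO. SE was the log2 fold change over the square root of F. The 21 genes of the rule were not tested. Genes were named by a fixed rule: among called genes with the same direction in each mouse (against CTL, groups not overlapping) and at least 50 UMIs in the higher group of each mouse, the 12 largest rises and 12 largest falls against Scara5-side cells and 6 and 6 in the other comparisons; the 3 most abundant called genes per list and direction; and a fixed set. Symbols listed more than once (58) are uncertain. Doublets were not removed; alternatives left out stromal cells above the 0.9 quantile of their library for keratins or for UMIs. Other alternatives changed the size factors, the test (DESeq2 1.42.0), the filter, the mitochondrial and collagen limits, the member rule, the depth and the block. Tables and figures were made with Python 3.11.15, numpy 2.4.6, pandas 2.3.3, scipy 1.17.1 and matplotlib 3.10.9. Promoters came from RefSeq gene starts of GRCm38.p6. With 2 mice per group only large differences can be detected, and keratin and *Postn* transcripts were counted in all cell groups.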

Additional observations from a re-analysis of the deposited data

How the results depend on the processing

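Of 131 genes named and called within LATS1/2-KO, all kept their direction under every alternative that tested them (124 genes with sums thinned, 127 with the collagen limit of 1% or without the deepest cells), except *Adm*, whose log2 fold change was 0.39 in LATS1/2-KO replicate 1 alone and -2.47 in replicate 2 alone. Of the 11 genes given as not called there, *Eln* passed under 5 alternatives, DESeq2 among them, *Lox* under 2, and *Spry4* turned under 2; *Pdgfra* turned to 0.0607 without the deepest cells, *Yap1* to 0.0037 with no filter, 0.15 with cells thinned and 0.19 without the deepest cells, and *Cyr61* to 0.0275 with no filter, 0.0082 with the strict rule, 0.18 with cells thinned, 0.0662 without the deepest cells and under 1 alternative more. *Wwtr1* passed with cells thinned, at 0.77, and *Lats1*, *Lats2*, *Il6* and *Spry2* neither passed nor turned. The calls lost were most with the collagen limit of 1% (39 of 127), DESeq2 (33 of 131) and the strict rule (25 of 129), and 0 with RLE size factors, the 10% mitochondrial limit or the cells richest in keratin left out. Of 21 genes given in the report as called against CTL, all kept their direction where tested; *Lpl* lost its call under 5 alternatives and *Inhbb* under 3, DESeq2 among both, *Prg4* lost its call with the collagen limit of 1% or without CTL replicate 1, *C3* without the deepest cells, and *Serpinh1* with DESeq2 or without LATS1/2-KO replicate 2.

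Against Scara5-side cells (620 higher, 569 lower) the counts were 362 and 379 with the collagen limit of 1%, 307 and 332 with DESeq2, 283 and 284 with sums thinned (4445 genes tested), and 919 and 904 with the 2 groups fitted alone (8478 tested), an alternative chosen after the data were seen, as was the Notch3 side without the collagen limit and with a winning sum of at least 3 UMIs and 2 times each other sum. Against Notch3-side cells (24 and 12) they were 0 and 6 with the collagen limit of 1%, 23 and 25 with DESeq2, 66 and 20 with the 10% mitochondrial limit, 41 and 17 without *Cspg4*, 2 and 10 with the strict rule, 3 and 2 with sums thinned, 93 and 8 with cells thinned, 14 and 10 without the deepest cells, 16 and 15 with RLE size factors, and 737 and 512 with both of those changes on that side, for which DESeq2 gave 360 and 281. Sums thinned left 79 genes tested there, so its named genes have no value. Against CTL (469 and 458) they were 283 and 247 with the collagen limit of 1%, 213 and 220 with DESeq2, 189 and 148 with sums thinned (1001 tested), 298 and 231 with cells thinned (3122 tested), and 284 to 553 higher and 138 to 488 lower with each replicate left out, where the lone library was assumed to vary like the other group. Apart from fewer genes tested, the cause was not tested. All other alternatives stayed within 1.5 times these counts, except the fit with no replicate block against Notch3-side cells, given next.

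With the replicate number as replicate block the comparison with CTL gave 529 and 478, though equal numbers do not pair mice. With no replicate block the counts were 619 and 566 against Scara5-side cells and 56 and 17 against Notch3-side cells. The share difference was 39.2 to 58.8 points under the alternatives and 35.0 to 59.7 with each replicate left out. The small numbers of CTL fibroblasts, 51 cells, and of Notch3-side cells, 10 cells, also limit what can be detected.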
